A study of Mus musculus with 36 samples.

Results

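The whole livers of 3 female Gulo-/- mice given 0.01% ascorbate in their water (FGL01) were compared with those of 3 female Gulo-/- mice given 0.4% (FGL40). Both groups drank their solution from weaning and were sampled at 4 months of age, after an overnight fast. The genes described are all those with a value above 0 in at least 4 of these 6 mice, which were 18936 of the 36066 genes in the table of TPM, a measure of each gene's transcripts relative to a fixed total of 1000000 in every liver. The series holds 36 mice in 12 groups, and 5 other groups are set beside these below. FGL00 were 3 female Gulo-/- mice raised on 0.4% ascorbate from which it was withdrawn for the last 4 weeks, FWT00 were 3 wild type (Gulo+/+) females without ascorbate in their water, FGL05 were 3 female Gulo-/- mice on 0.05%, and MGL01 and MGL40 were 3 male Gulo-/- mice each on 0.01% and 0.4%. The fits also used FGLR40 females, Gulo-/- mice on 0.4%, then none for 4 weeks, then 0.4% again for the last 4 weeks. The fit of both sexes also used males treated likewise (MGL00, MGL05, MGLR40 and wild type MWT00). A MGLR40 mouse is described as female in the labels and was fitted under its group name. All Gulo-/- groups share the loss of Gulo in every cell, so no group shows the effect of supply in an animal that makes its own ascorbate. The files hold TPM without read counts, and the depth of each library is unknown.

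Gulo encodes gulonolactone oxidase, which carries out the last step of ascorbate synthesis in the liver of most mammals. Ascorbate keeps the iron of many dioxygenases reduced, among them the prolyl and lysyl hydroxylases of collagen, the TET and JmjC enzymes that demethylate DNA and histones, and the hydroxylases of carnitine synthesis. The mouse liver is also a strongly sexually dimorphic organ. The pulsatile growth hormone of males and the near-continuous growth hormone of females set different levels of major urinary proteins (Mup), P450 enzymes and sulfotransferases through STAT5b. These lists of genes, and those of the acute phase, lipid synthesis, the interferon response and other cell types, were therefore followed gene by gene.

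Gulo itself had 16.4, 30.2 and 32.8 TPM in the 3 FGL01 livers and 35.9, 35.2 and 32.1 TPM in the 3 FGL40 livers, against 242 ± 23.3 TPM in the wild type females. Transcript of the gene was thus far lower in both groups than in wild type but above 0, and the FGL01 and FGL40 values did not differ past the test (log2 fold change -0.43 ± 0.21 SE, adjusted p = 0.182). Of 10 hepatocyte markers, 1 passed the test (Hnf4a, lower) and none was at 0 in any of the 6 livers. The count of lower markers was 2 without FGL01-2724 and 0 without any other single liver. The 31 markers of pancreatic acinar cells stood at 1.65% of all TPM in FGL40-2695, where 1 marker was at 0, and at 0.00305% to 0.0119% in the other 5 livers, where 4 to 22 were at 0. Amy2a5, pancreatic amylase, had 0.0147, 512 and 3.81 TPM in FGL40. In the results below the counts without FGL40-2695, or without another liver, are given where they differ from the full count by over 1.5 times. The 6 libraries correlated with each other at 0.963 to 0.994 (Pearson's r across tested genes, which are not independent replicates), and none was a copy of another.

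Low ascorbate supply came with broad differences in the liver transcriptome. With limma on log2(TPM + 1) in all 18 females, 2550 genes (13.5% of those tested) were higher in FGL01 and 996 (5.26%) were lower at an adjusted p under 0.05. Genes that also had a ratio of mean TPM above 2 are called changed: 603 (3.18%) were higher and 371 (1.96%) were lower. The 2 groups did not overlap in 6568 of the tested genes (34.7%) and in 947 of the changed ones, so a lack of overlap is common. The direction of the split depended on the scale. After the TPM were rescaled by median ratios, 1335 genes were higher and 1750 lower at the same adjusted p, so that the higher share went from 71.9% to 43.3%. Among changed genes 384 were then higher and 488 lower, and the higher share went from 61.9% to 44.0%. The shift of the median log2 fold change by this rescaling was -0.06 over the tested genes and -0.13 over the 8936 whose mean reached 5 TPM. Small differences of many genes in 1 direction are therefore given below with their rescaled counts. Every count of list members against FGL40 before rescaling stands beside 13.5% higher and 5.26% lower among all tested genes. Rescaled counts stand instead beside the shares given by 1335 higher and 1750 lower of the 18936 tested genes. Counts near these shares are not results about the list. Without FGL40-2695 there were 487 higher and 369 lower, and without FGL01-2722 the lower genes went to 245.

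**Figure D1:**
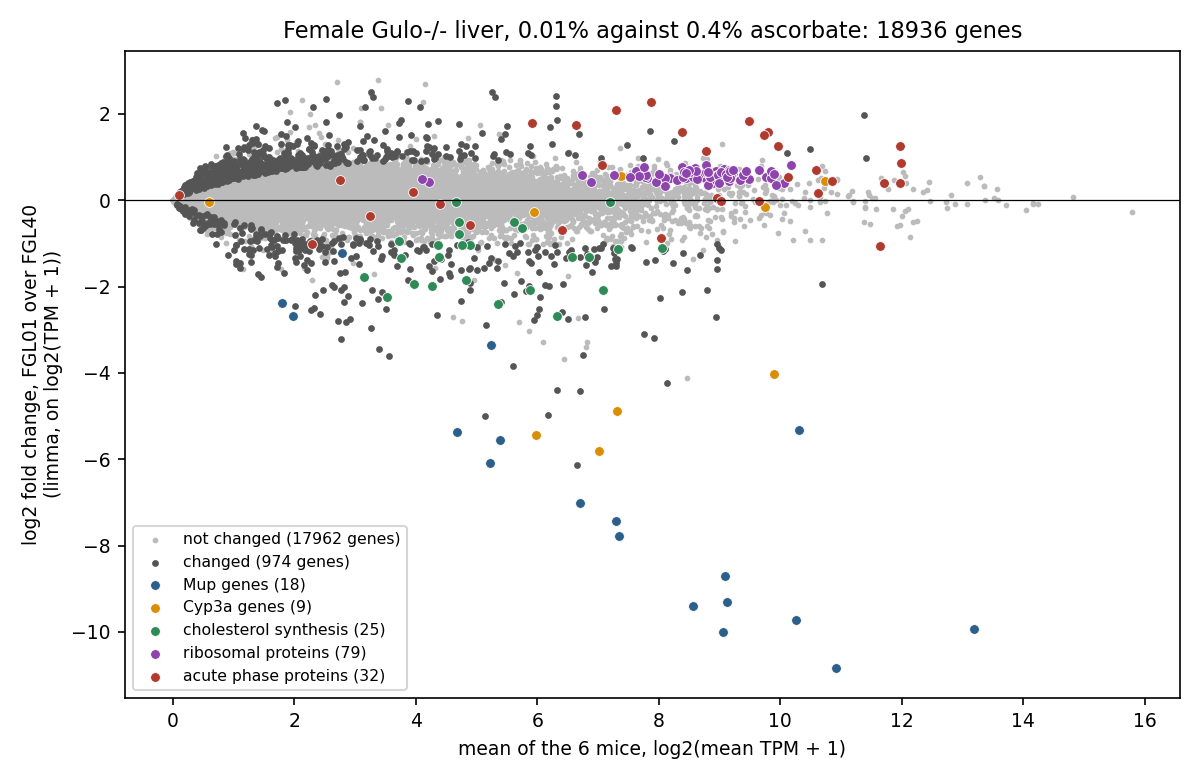
Log2 fold change of FGL01 over FGL40 (limma on log2(TPM + 1)) against the log2 mean TPM of the 6 mice, 1 point per gene; dark points are the 974 changed genes and colours mark 5 gene lists. The 18 Mup genes range from -1.21 down to -10.85, while the 79 ribosomal protein genes form a band just above 0.

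The Mup genes showed the largest falls. Mup proteins bind and carry pheromones and are secreted by the liver into blood and urine. All 18 tested members of this family of 22 were lower in FGL01 than in FGL40, with a median log2 fold change of -7.22 against 0.07 over all genes tested. Summed over the family, Mup transcripts took 0.00205%, 0.0121% and 0.0326% of all TPM in the 3 FGL01 livers, and 3.02%, 4.03% and 2.75% in the FGL40 livers. The groups did not overlap, and the exact two-sided permutation test gave 0.1, the smallest p that 3 mice against 3 allow. Mup22, the most abundant member, had 4.26, 14.6 and 83.7 TPM in FGL01 and 17517, 22262 and 16411 TPM in FGL40 (log2 fold change -9.93 ± 0.68 SE, adjusted p = 7.93e-07). Mup18 had 0, 1.73 and 7.54 TPM against 2242, 2918 and 2190.1 TPM (log2 fold change -9.73 ± 0.59 SE, adjusted p = 2.54e-07). In both genes every FGL01 liver was under 100 TPM.

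The steepest fitted fall was that of Mup19, which was listed at 0, 0.746 and 3.08 TPM in FGL01 and at 2676, 6332 and 2628 TPM in FGL40 (log2 fold change -10.85 ± 0.83 SE, adjusted p = 2.57e-06). Mup15 was listed at 0 in 2 FGL01 livers and at 0.0945 TPM in the other, against 985, 1278 and 925 TPM in FGL40. Mup17 and Mup16 were likewise listed at 0 in FGL01-2722 and FGL01-2723, with 742, 881 and 642 TPM for Mup17 in FGL40 and 1056, 1372 and 916 TPM for Mup16. Values for genes this low in FGL01 depend on the pseudocount, so their fold changes are not sizes of effect. Mup3, also on the list of male-biased genes, had 10.96, 91.3 and 196 TPM in FGL01 and 2935, 2396 and 1985 TPM in FGL40 (log2 fold change -5.32 ± 0.65 SE, adjusted p = 0.000181). The other named members, Mup11, Mup14, Mup9, Mup10 and Mup1, had log2 fold changes of -8.70, -7.78, -7.42, -7.01 and -6.09. Mup genes are near-identical copies, so the share of reads given to each member is uncertain, while the family sum does not depend on the split among its members. Reads shared with copies outside the summed members could still affect it. All 18 were lower after rescaling as well, and with any 1 of the 6 livers left out.

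Of the other female groups, the mice from which ascorbate was withdrawn had the level closest to FGL01. Mup transcripts took 0.0607% ± 0.0198 of TPM in FGL00, 2.18% ± 1.02 in FGL05, 2.67% ± 0.766 in FWT00 and 3.27% ± 0.674 in FGL40 (SD, n = 3). FGL01, at 0.0156% ± 0.0156, was the lowest of these means, and only its difference from FGL40 was tested. Male livers held 2.08% ± 1.24 in MGL01 and 10.1% ± 2.26 in MGL40.

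Liver genes that are higher in females than in males were mostly lower in FGL01 where they passed the test. Of 35 tested female-biased genes 18 were lower and 1, Rdh9, was higher, with a median of -0.77. With 1 liver left out 14 to 18 were lower, and 3 were higher without FGL01-2724 and 2 without FGL40-2696. The Cyp3a genes of the female liver, P450 enzymes that hydroxylate steroids and drugs, fell most. Cyp3a16 had 0.909, 5.38 and 5.93 TPM in FGL01 and 289, 168 and 305 TPM in FGL40 (log2 fold change -5.81 ± 0.80 SE, adjusted p = 0.000324). Cyp3a41a had 50.2, 201 and 121 TPM against 2058, 1394 and 1906 TPM (log2 fold change -4.03 ± 0.58 SE, adjusted p = 0.000464), and Cyp3a44 had 4.30, 12.6 and 14.01 TPM against 327, 262 and 324 TPM (log2 fold change -4.89 ± 0.62 SE, adjusted p = 0.000218). In each of the 3 genes FGL01-2722 was the lowest liver and every FGL40 liver was several times above every FGL01 liver. Cyp3a41b, a near copy of Cyp3a41a, gave -5.45 with an adjusted p of 0.00489. The remaining 5 of the 9 Cyp3a genes did not pass the test.

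Cyp2a4, a steroid 15-alpha-hydroxylase, had 7.89, 80.7 and 105 TPM in FGL01 and 405, 237 and 607 TPM in FGL40 (log2 fold change -3.19 ± 0.67 SE, adjusted p = 0.00468). Cyp2b9, another female-specific P450, had 218, 339 and 423 TPM against 508, 460.1 and 467 TPM and moved far less (log2 fold change -0.60 ± 0.18 SE, adjusted p = 0.0279). Cyp2a5, which oxidises coumarin and nicotine, had 144, 166 and 207 TPM against 573, 436 and 575 TPM (log2 fold change -1.62 ± 0.23 SE, adjusted p = 0.000434). The groups did not overlap in any of the 3 genes. Cyp2b10, the classic target of the nuclear receptor CAR, had 0.940, 16.3 and 20.4 TPM against 225, 141 and 213 TPM (log2 fold change -4.41 ± 0.98 SE, adjusted p = 0.00684), and was nearly lost in FGL01-2722. Of the 18 genes of the Cyp2a and Cyp2b families with the nuclear receptors CAR and PXR and their targets, 7 were lower and 1 was higher. The higher gene was Por, the reductase that passes electrons to microsomal P450s, at 702, 523 and 468 TPM in FGL01 and 257, 294 and 299 TPM in FGL40 (log2 fold change 0.97 ± 0.14 SE, adjusted p = 0.000411). Aldh1a1, which oxidises retinal, was lower, with 84.6, 199 and 254 TPM against 957, 558 and 614 TPM (log2 fold change -2.08 ± 0.31 SE, adjusted p = 0.000472), and Cyp2a12 was lower with -0.64.

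Within the Cyp2c family, which makes epoxides of arachidonic acid and clears many drugs, 5 of 13 genes were lower and none was higher. Cyp2c29, its most abundant changed member, had 459.7, 738 and 832 TPM in FGL01 and 3343, 1861 and 2621 TPM in FGL40 (log2 fold change -1.95 ± 0.41 SE, adjusted p = 0.00474). Cyp2c70, which makes muricholic acids in mice, had 96.7, 139 and 137 TPM against 568, 436 and 623 TPM (log2 fold change -2.12 ± 0.41 SE, adjusted p = 0.00304). Both genes were lower in each FGL01 liver than in any FGL40 liver. Cyp2c69, Cyp2c40 and Cyp2c23 had log2 fold changes of -1.38, -1.19 and -1.02. Without FGL01-2722 the count of lower Cyp2c genes went from 5 to 3. In the Cyp2d family 2 of 9 were lower (Cyp2d13, -1.10, and Cyp2d40, -0.87) and Cyp2d9 was higher, at 92.8, 53.8 and 49.8 TPM against 18.3, 22.7 and 22.6 TPM (log2 fold change 1.53 ± 0.42 SE, adjusted p = 0.0187). No Cyp2d gene was higher without FGL01-2722 or FGL40-2694, and 2 were without FGL01-2724. Of 5 flavin monooxygenases only Fmo1 passed the test, with 99.9, 153 and 163 TPM against 245, 205 and 227 TPM (log2 fold change -0.72 ± 0.15 SE, adjusted p = 0.00355).

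Of 23 tested male-biased genes 9 were lower, 1 was higher (Cyp2d9) and 13 did not pass, with a median of -0.93. None was higher without FGL01-2722 or FGL40-2694, and 2 were without FGL01-2724. The 9 include Mup3, Mup20 and Mup21, which are also counted in the Mup family. Cyp2f2, a P450 of lung and liver, had 15.8, 22.1 and 56.3 TPM in FGL01 and 523, 528 and 525 TPM in FGL40 (log2 fold change -4.23 ± 0.37 SE, adjusted p = 8.75e-06). The FGL40 values were nearly equal to each other, and every FGL01 liver was far below them. Ugt2b1 had 27.8, 37.95 and 57.1 TPM against 126, 111 and 99.1 TPM, and Nudt7, a peroxisomal coenzyme A diphosphatase, had 21.03, 44.02 and 61.2 TPM against 90.3, 78.6 and 75.6 TPM. Both passed the test, with log2 fold changes of -1.48 and -1.06.

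Genes of the growth hormone and STAT5 axis moved in both directions. Of 20 tested, 3 were higher and 7 were lower, and after rescaling 3 were higher and 10 lower. Socs2, a STAT5 target that restrains growth hormone signaling, had 226, 117 and 51.6 TPM in FGL01 and 20.8, 24.6 and 26.1 TPM in FGL40 (log2 fold change 2.18 ± 0.61 SE, adjusted p = 0.0208). All FGL01 livers were above all FGL40 livers, and FGL01-2722 was the highest. Hhex, a homeobox repressor, had 49.5, 67.1 and 89.8 TPM against 17.5, 18.7 and 22.4 TPM (log2 fold change 1.73 ± 0.34 SE, adjusted p = 0.00296). The growth hormone receptor Ghr was lower, at 142, 199.8 and 192 TPM against 267, 238 and 234 TPM (log2 fold change -0.48 ± 0.11 SE, adjusted p = 0.00831), as was the prolactin receptor Prlr (log2 fold change -0.46 ± 0.12 SE, adjusted p = 0.0156). Hnf4a, the nuclear receptor that maintains the hepatocyte programme, was lower with overlapping groups, at 169, 173 and 259 TPM against 294, 274 and 245 TPM (log2 fold change -0.46 ± 0.15 SE, adjusted p = 0.0475). The count of 7 lower genes was 3 without FGL01-2722, 2 without FGL40-2694 and 4 without FGL40-2696.

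Enzymes that conjugate steroids, bile acids and drugs were lower in FGL01 where they passed the test. Of 15 sulfotransferases 9 were lower and none higher, with a median of -1.36. Sult2a8, a bile acid sulfotransferase of mice, had 7.97, 12.7 and 32.5 TPM in FGL01 and 218, 213 and 154 TPM in FGL40 (log2 fold change -3.59 ± 0.34 SE, adjusted p = 2.37e-05). Sult5a1 had 0.569, 1.07 and 0.743 TPM against 17.6, 22.02 and 23.02 TPM (log2 fold change -3.61 ± 0.42 SE, adjusted p = 0.00012), and Sult3a1, a female-biased member, had 43.2, 19.4 and 22.1 TPM against 147, 92.8 and 87.2 TPM (log2 fold change -1.96 ± 0.42 SE, adjusted p = 0.00541). No FGL01 liver reached the FGL40 range in these genes. The more abundant Sult1a1 and Sult1d1 had smaller falls, with log2 fold changes of -0.77 and -1.29. Of 18 glucuronosyltransferases 10 were lower and none higher, with a median of -0.87. Ugt2b5, its most abundant lower member, had 143, 233 and 382 TPM against 629, 556 and 515 TPM (log2 fold change -1.27 ± 0.27 SE, adjusted p = 0.00464). Ugt1a5 had 11.3, 51.3 and 58.1 TPM against 129.7, 114 and 143 TPM (log2 fold change -1.94 ± 0.41 SE, adjusted p = 0.00464), although the Ugt1a genes share their last exons, which makes the split of reads among them uncertain. Ugt2b36, Ugt2b34 and Ugt3a2 were lower with -0.86, -1.13 and -0.78.

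Of 30 glutathione transferases and NRF2 targets 11 were lower and 1 was higher. Gsta3 had 609, 946 and 904 TPM in FGL01 and 1756, 1357 and 1499 TPM in FGL40 (log2 fold change -0.93 ± 0.25 SE, adjusted p = 0.0174). Gclc, the catalytic subunit of the rate-limiting enzyme of glutathione synthesis, had 42.9, 90.04 and 168 TPM against 237, 183 and 193 TPM (log2 fold change -1.22 ± 0.34 SE, adjusted p = 0.0213). In Gclc the FGL01 livers spread over a wide range, and the highest of them came close to the lowest FGL40 liver. Gstm3 had the largest fall of the list, with 0.832, 8.36 and 9.63 TPM against 126, 41.4 and 97.6 TPM (log2 fold change -3.84 ± 0.87 SE, adjusted p = 0.00768). Gstt1, Gstt3 and Gsta4 were lower with -0.88, -1.38 and -0.45. The higher gene was Hmox1, which breaks down heme, at 101, 48.3 and 42.3 TPM against 27.7, 28.9 and 26.1 TPM (log2 fold change 1.08 ± 0.27 SE, adjusted p = 0.0131). Without FGL40-2694, 7 genes of this list were lower. Of 23 drug and anion transporters 8 were lower and 1 higher (Abcg2, 0.49), and none was higher without FGL40-2695 or FGL40-2696. The uptake transporter Slco1b2 had 129.6, 200.4 and 298 TPM against 503, 468 and 414 TPM (log2 fold change -1.21 ± 0.21 SE, adjusted p = 0.00134), and the bile salt export pump Abcb11 had 48.6, 94.3 and 118 TPM against 219, 241 and 221 TPM (log2 fold change -1.46 ± 0.24 SE, adjusted p = 0.00088). Slc10a1, the main uptake carrier of bile salts, and Abcc2 were lower by less, with -0.40 and -0.42. Without FGL01-2722, FGL40-2694 or FGL40-2696, 5 transporters were lower.

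Of 19 genes of bile acid synthesis 9 were lower and 1, the FGF coreceptor Klb, was higher (0.45). Akr1c6 had 155, 232 and 395 TPM in FGL01 and 829, 722 and 641 TPM in FGL40 (log2 fold change -1.58 ± 0.30 SE, adjusted p = 0.00239). Hsd3b7, an enzyme early in the pathway, had 225, 314 and 387 TPM against 518, 520.3 and 485 TPM, and Cyp27a1, the sterol 27-hydroxylase, had 229.7, 289 and 338 TPM against 427, 474 and 411 TPM. All 3 were lower in every FGL01 liver, with log2 fold changes of -0.75 and -0.63 for the latter pair. Baat and Slc27a5, which conjugate bile acids to taurine or activate them for it, had -0.65 and -0.30. Cyp7b1, of the acidic route and male-biased, had the largest fall, with 2.08, 2.91 and 3.23 TPM against 16.7, 14.2 and 12.99 TPM (log2 fold change -2.07 ± 0.25 SE, adjusted p = 0.000148). Cyp7a1, the rate-limiting enzyme of the classic route, had 45.4, 96.7 and 39.2 TPM against 25.6, 25.7 and 9.55 TPM and did not pass the test (log2 fold change 1.53 ± 0.63 SE, adjusted p = 0.104).

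Most genes of cholesterol synthesis were lower in FGL01 than in FGL40. SREBP2 drives these enzymes, together with the LDL receptor and its regulators, when cell sterol is low. Of 25 members 17 were lower and none was higher, with a median of -1.31. The list summed to 590, 1153 and 992 TPM in FGL01 and to 2239, 1505 and 2296 TPM in FGL40. Other females were low as well, with 1245, 1244 and 1225 TPM in FWT00 and 2054, 1004 and 2453 TPM in FGL05. The sums were not tested, and FGL40 was high beside the wild type. Fdps, farnesyl diphosphate synthase, had 7.18, 33.4 and 25.8 TPM in FGL01 and 161, 66.997 and 181 TPM in FGL40 (log2 fold change -2.68 ± 0.68 SE, adjusted p = 0.0139). Insig1, which holds SREBP in the endoplasmic reticulum, had 32.99, 88.9 and 39.2 TPM against 275, 146 and 224 TPM (log2 fold change -2.07 ± 0.58 SE, adjusted p = 0.0216). FGL01-2722 was the lowest liver in both, and FGL40-2695 was the lowest of its group. Sc5d and Tm7sf2 were lower with -1.14 and -1.32. The count was sensitive to single livers: 19 genes were lower without FGL40-2695, but 4 without FGL01-2722, 5 without FGL40-2694 and 4 without FGL40-2696.

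Of 31 genes of fatty acid and triglyceride synthesis 15 were lower, none was higher and 16 did not pass (median -0.71). Mlxipl, the carbohydrate response factor ChREBP, had 79.9, 83.99 and 102 TPM in FGL01 and 231, 223 and 232 TPM in FGL40 (log2 fold change -1.36 ± 0.12 SE, adjusted p = 8.75e-06), with tight values in both groups. Dgat2, which makes triglyceride, had 164, 215 and 259 TPM against 376, 336 and 372 TPM (log2 fold change -0.78 ± 0.14 SE, adjusted p = 0.00164). Me1, malic enzyme, had 18.1, 39.9 and 85.5 TPM against 106, 91.3 and 99.9 TPM (log2 fold change -1.29 ± 0.35 SE, adjusted p = 0.0178), with the FGL01-2724 liver close to the FGL40 range. The desaturases Fads1 and Fads2 were lower with -0.95 and -0.88. Of 31 fatty acid oxidation genes and PPAR-alpha targets 7 were higher, none was lower and 24 did not pass (4 and 0 passed after rescaling), with a median of 0.43. The share of all tested genes that were higher was 13.5%. Over the list, the median difference from the FGL40 mean was 0.46 in FGL01-2723 and 0.75 in FGL01-2724 on the log2 scale, but 0.06 in FGL01-2722, next to the 0.03 of FGL40-2694. Wild type females had 0.37, 0.07 and 0.47 on this measure, which was not tested.

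Cyp4a14, a fatty acid omega-hydroxylase, had 3556, 4477 and 4685 TPM in FGL01 and 1014, 1307 and 946 TPM in FGL40 (log2 fold change 1.96 ± 0.34 SE, adjusted p = 0.00147). Cyp4a10, its relative, had 1998, 1834 and 2149 TPM against 817, 929 and 882 TPM (log2 fold change 1.18 ± 0.35 SE, adjusted p = 0.0263). All FGL01 livers were above all FGL40 livers in both genes. Cpt1a, the gate of mitochondrial fatty acid uptake, had 301, 254 and 241 TPM against 114, 155 and 137 TPM (log2 fold change 0.97 ± 0.26 SE, adjusted p = 0.0176). Acadvl and Acadl, which start beta-oxidation, were higher with 0.45 and 0.42, and after rescaling neither passed the test (adjusted p = 0.0892 and 0.158). Single livers mattered here: 4 genes were higher without FGL01-2723, FGL01-2724 or FGL40-2695, 3 without FGL40-2696 and 1 without FGL40-2694.

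Among gluconeogenesis and insulin response genes 4 of 21 were higher and 4 lower, beside 13.5% and 5.26% of all tested genes. Got1, cytosolic aspartate aminotransferase, had 747, 344 and 251 TPM in FGL01 and 115, 187 and 172 TPM in FGL40 (log2 fold change 1.37 ± 0.34 SE, adjusted p = 0.0112), and Fbp1, fructose bisphosphatase, had 1097, 1190.2 and 1088 TPM against 723, 744 and 719 TPM (log2 fold change 0.62 ± 0.13 SE, adjusted p = 0.00353). Pygl, liver glycogen phosphorylase, was lower, at 49.4, 103 and 117 TPM against 233, 208 and 217 TPM (log2 fold change -1.37 ± 0.22 SE, adjusted p = 0.000955), and Ppp1r3b, which targets a phosphatase to glycogen, was lower with -1.88. Pyruvate carboxylase (Pcx) was higher with 0.68. The 4 lower genes went to 2 without FGL01-2722 or FGL40-2694. Of 8 citrate and dicarboxylate carriers Slc13a5 was higher (log2 fold change 1.25 ± 0.21 SE, adjusted p = 0.00115) and Slc13a2 lower (log2 fold change -1.78 ± 0.22 SE, adjusted p = 0.000192), both under 5 TPM, and 2 were lower without FGL01-2724. In the clock list 2 of 19 were higher and 2 lower. With 1 liver left out 0 or 1 clock gene was lower, and 1 was higher, except for 4 without FGL01-2724. Per1 had 40.3, 21.5 and 20.7 TPM against 7.15, 6.06 and 8.13 TPM (log2 fold change 1.75 ± 0.40 SE, adjusted p = 0.00783). Bhlhe40 and Npas2 were lower with -0.68 and -0.90, and Per3 was higher with 0.92, with overlapping groups and not after rescaling (adjusted p = 0.0928). Of 15 glucocorticoid response genes Per1 was higher and Sult1a1 and Hsd11b1, which regenerates corticosterone, were lower (-0.73 for Hsd11b1), and 2 were higher without FGL01-2722 or FGL40-2696 and 3 without FGL01-2724.

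**Figure D2:**
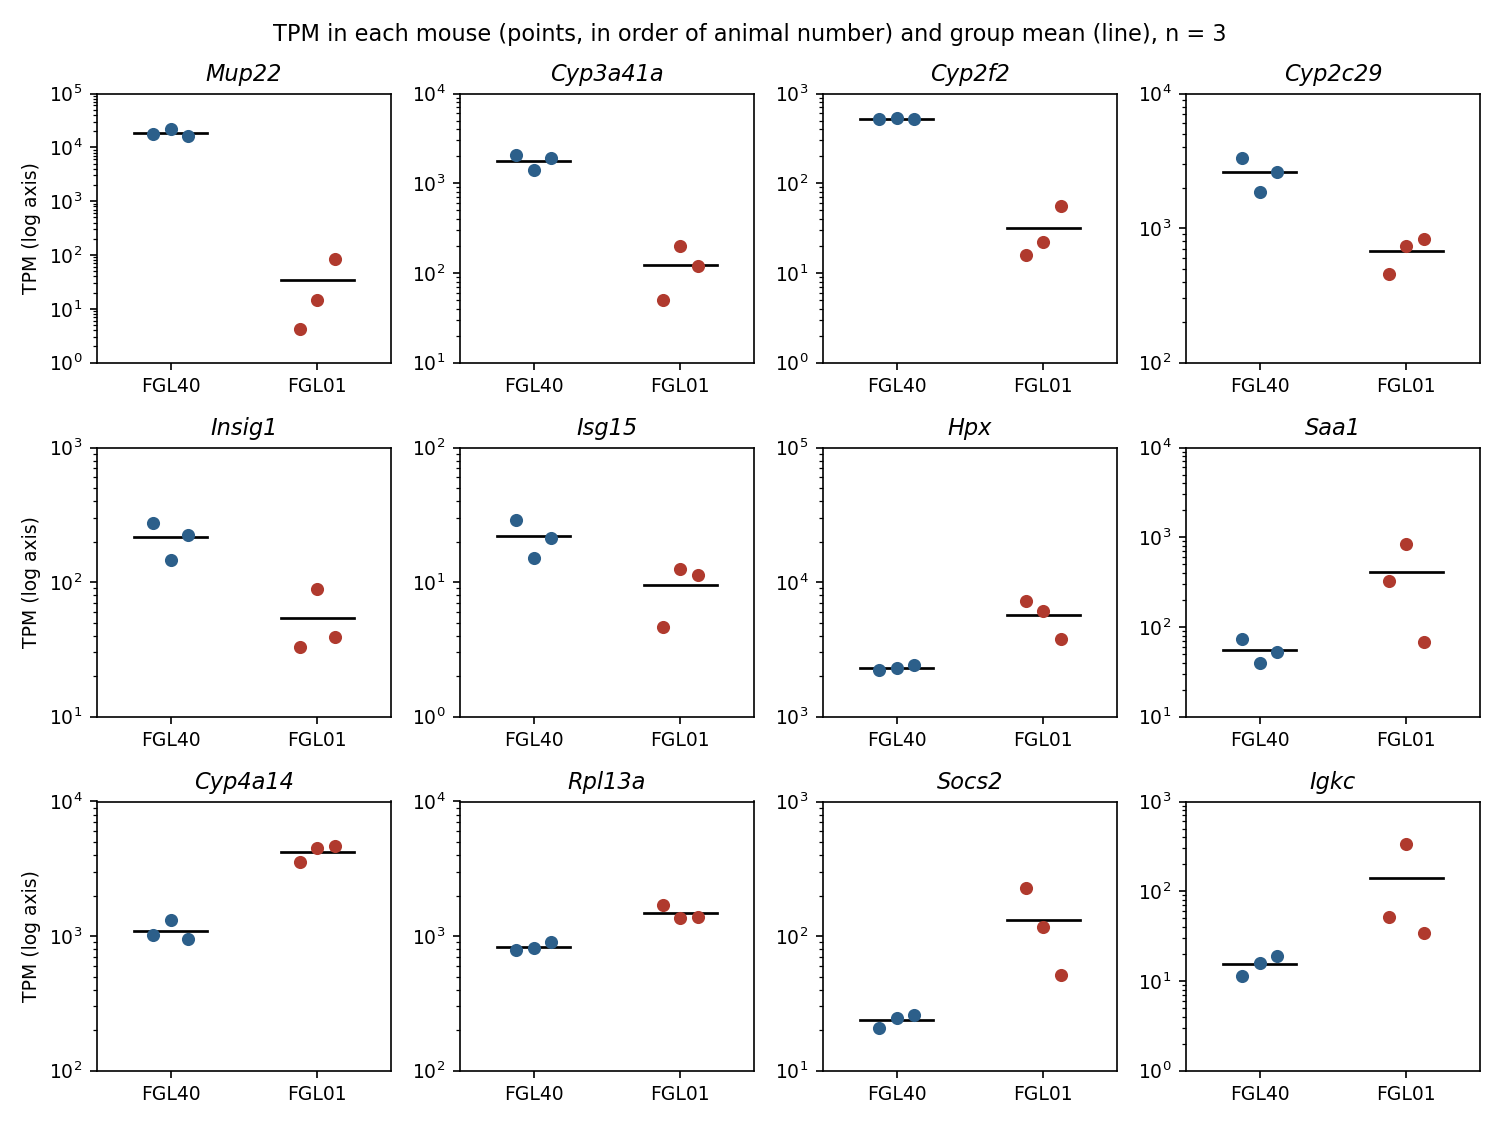
TPM in each liver (log axis) of 12 of the genes described here, FGL40 in blue and FGL01 in red, points in order of animal number and lines at the group means (n = 3). The groups are apart in 11 of these 12 picked genes, beside 34.7% of all tested genes. Saa1 is the exception, with FGL01-2724 at 67.2 TPM inside the FGL40 range.

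Acute phase proteins, which the liver secretes under interleukin 6 and STAT3, passed the test in both directions and were uneven among the FGL01 mice. Of 32 members 11 were higher and 5 lower (10 and 5 after rescaling), with a median of 0.46. Hpx, hemopexin, had 7295, 6047 and 3783 TPM in FGL01 and 2218, 2282 and 2419.7 TPM in FGL40 (log2 fold change 1.26 ± 0.16 SE, adjusted p = 0.000231). Hp, haptoglobin, had 6156, 5652 and 3967 TPM against 2910.1, 2678 and 2947 TPM (log2 fold change 0.86 ± 0.15 SE, adjusted p = 0.00163). In both genes FGL01-2722 was highest and FGL01-2724 nearest to FGL40. Itih3 and Itih4, heavy chains of inter-alpha-trypsin inhibitor, were higher with 1.26 and 0.69. Saa1, serum amyloid A, had 321, 849.6 and 67.2 TPM against 72.5, 39.7 and 52.8 TPM and overlapped between the groups (log2 fold change 2.29 ± 0.68 SE, adjusted p = 0.0286). Over the whole list, the median difference from the FGL40 mean was 1.10 in FGL01-2722, 0.76 in FGL01-2723 and 0.00 in FGL01-2724 on the log2 scale. Without FGL40-2695 the list had 7 higher and 2 lower members, and it had 1 lower without FGL01-2722, 3 without FGL40-2694 and 2 without FGL40-2696. Neutrophil markers varied with it: their sum was 454, 420.3 and 58.05 TPM in FGL01 and 48.9, 54.02 and 75.1 TPM in FGL40, and of the 16 markers 0 to 1 were at 0 in FGL01 and 3 to 4 in FGL40. Most of this sum was Lcn2, lipocalin 2, which is on both lists and is also made by hepatocytes, at 387, 381 and 39.7 TPM against 34.1, 36.4 and 57.2 TPM (log2 fold change 2.10 ± 0.71 SE, adjusted p = 0.052). The granulocyte proteins S100a8 and S100a9 had 17.5, 7.54 and 2.62 TPM against 3.68, 4.17 and 4.37 TPM, and 23.6, 16.4 and 6.85 TPM against 6.77, 7.13 and 7.75 TPM. FGL01-2724 was thus within or next to the FGL40 range in all 3 genes, as in Saa1, and the part of neutrophils in the acute phase values was not tested.

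Hamp, hepcidin, the iron hormone that interleukin 6 also induces, was lower, with 2296, 2059 and 1818 TPM in FGL01 and 3729, 5001 and 4179.7 TPM in FGL40 (log2 fold change -1.06 ± 0.27 SE, adjusted p = 0.0144). No FGL01 liver reached the lowest FGL40 value. Among 20 iron genes 3 were higher and 3 lower, and after rescaling 2 and 5. Tfr2, the transferrin sensor upstream of hepcidin, was higher at 412, 344 and 325 TPM against 245, 252 and 263 TPM (log2 fold change 0.50 ± 0.08 SE, adjusted p = 0.000811). Ftl1, ferritin light chain, was lower (log2 fold change -0.47 ± 0.13 SE, adjusted p = 0.021), as was Aco1, the iron-regulated RNA-binding aconitase (log2 fold change -0.48 ± 0.10 SE, adjusted p = 0.00413). Transferrin (Trf) was higher with 0.27, which did not pass after rescaling (adjusted p = 0.267).

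In the interleukin 6 and STAT3 list 2 of 23 genes were higher and 2 lower, with 1 higher without FGL01-2722, FGL40-2694 or FGL40-2696 and 4 without FGL01-2724. Stat3 had 138, 89.4 and 70.5 TPM in FGL01 and 53.4, 53.05 and 67.3 TPM in FGL40 (log2 fold change 0.72 ± 0.17 SE, adjusted p = 0.00988), and its feedback inhibitor Socs3 had 29.2, 15.3 and 15.1 TPM against 8.64, 8.86 and 10.8 TPM (log2 fold change 0.94 ± 0.31 SE, adjusted p = 0.0429). After rescaling neither passed, with adjusted p of 0.0522 and 0.0855. Lifr, the receptor of leukemia inhibitory factor, fell to 21.1, 29.1 and 35.6 TPM from 107, 103 and 136 TPM (log2 fold change -1.996 ± 0.28 SE, adjusted p = 0.000352), and Tyk2 was lower with -0.45. The windows of 250 bases before the start of 25 acute phase genes were searched for TTCNNNGAA, the palindromic element of STAT factors, on both strands. It was present in 7 of them and in 7.44% of the 13279 tested genes with a window. The stretches around it in 3 members past the test are given here, from the RefSeq promoters of GRCm38.p6, with the element in capitals, Apcs (serum amyloid P) and Itih4 being higher and Hamp lower in FGL01. The stretches lie at chr1:172895250-172895304 (minus strand), chr14:30886385-30886473 (plus) and chr7:30944078-30944166 (minus).
Apcs: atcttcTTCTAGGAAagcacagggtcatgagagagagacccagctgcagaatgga
Itih4: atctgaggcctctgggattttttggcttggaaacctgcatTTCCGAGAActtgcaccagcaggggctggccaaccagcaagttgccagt
Hamp: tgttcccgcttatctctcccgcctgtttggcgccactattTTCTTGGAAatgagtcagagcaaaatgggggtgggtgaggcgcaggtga

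Complement genes, also liver-made, had 9 of 30 higher and 3 lower, but 3 higher and 5 lower after rescaling, and 3 to 5 higher without FGL01-2722, FGL01-2723, FGL40-2694, FGL40-2695 or FGL40-2696. Without FGL01-2724, 5 were lower. C3, the central component, had 5888, 5041 and 4395 TPM in FGL01 and 3539, 3330.4 and 3428 TPM in FGL40 (log2 fold change 0.56 ± 0.11 SE, adjusted p = 0.00359), and C4b had 857, 651 and 530.0 TPM against 453, 393 and 437 TPM (log2 fold change 0.64 ± 0.13 SE, adjusted p = 0.00389). Both were higher in all FGL01 livers and passed after rescaling too (adjusted p = 0.0298 and 0.0371). Cfb, Serping1 and Cfi had small rises of 0.26, 0.31 and 0.31 that did not pass after rescaling. Of 24 coagulation genes 3 were higher and 3 lower (1 and 5 after rescaling), and 5 were lower without FGL01-2722. Of all tested genes 13.5% were higher and 5.26% lower. F10 had 0.32 and Kng2 0.47, neither of them past the test after rescaling, while Serpind1, heparin cofactor II, had -0.52, Klkb1 -0.51 and F9 -0.21.

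Negative acute phase and carrier proteins had 6 of 18 lower and 2 higher (8 and 0 after rescaling). Serpina1c, an alpha-1-antitrypsin paralog, had 3887, 3727 and 3949.5 TPM in FGL01 and 5353, 5368 and 5558 TPM in FGL40 (log2 fold change -0.49 ± 0.11 SE, adjusted p = 0.00517), and Serpina1d was lower with -0.36. Reads of these paralogs can be shared. Gc, vitamin D-binding protein, had 3840.1, 3831 and 3911 TPM against 4661, 4456 and 4657 TPM (log2 fold change -0.25 ± 0.05 SE, adjusted p = 0.00379). Apoc3, which slows triglyceride clearance, had 2978, 3032 and 3210.3 TPM against 4790.3, 4296 and 4856 TPM (log2 fold change -0.59 ± 0.09 SE, adjusted p = 0.000641). These falls were small and held in each FGL01 liver. Of 18 apolipoproteins 3 were higher (1 without FGL40-2694) and 4 lower, and after rescaling 1 and 6. Apoa5, which speeds lipolysis, was higher at 2294, 1899 and 2141 TPM against 1208, 1399 and 1337 TPM (log2 fold change 0.68 ± 0.13 SE, adjusted p = 0.00219), with smaller rises of Apoc4 (0.28) and Apoc2 (0.42) that did not pass after rescaling, and a fall of Apom (-0.41). Of 22 retinoid genes 3 were higher and 8 lower (2 and 10 after rescaling). Dhrs3, a retinal reductase induced by retinoic acid, had 74.8, 121 and 134 TPM against 213, 187 and 218 TPM (log2 fold change -0.94 ± 0.15 SE, adjusted p = 0.001). Rdh9 was higher at 126, 132 and 134 TPM against 46.2, 83.2 and 62.4 TPM (log2 fold change 1.06 ± 0.18 SE, adjusted p = 0.00127), and Rdh16f2 and Rdh7 were lower with -0.66 and -0.26.

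**Figure D3:**
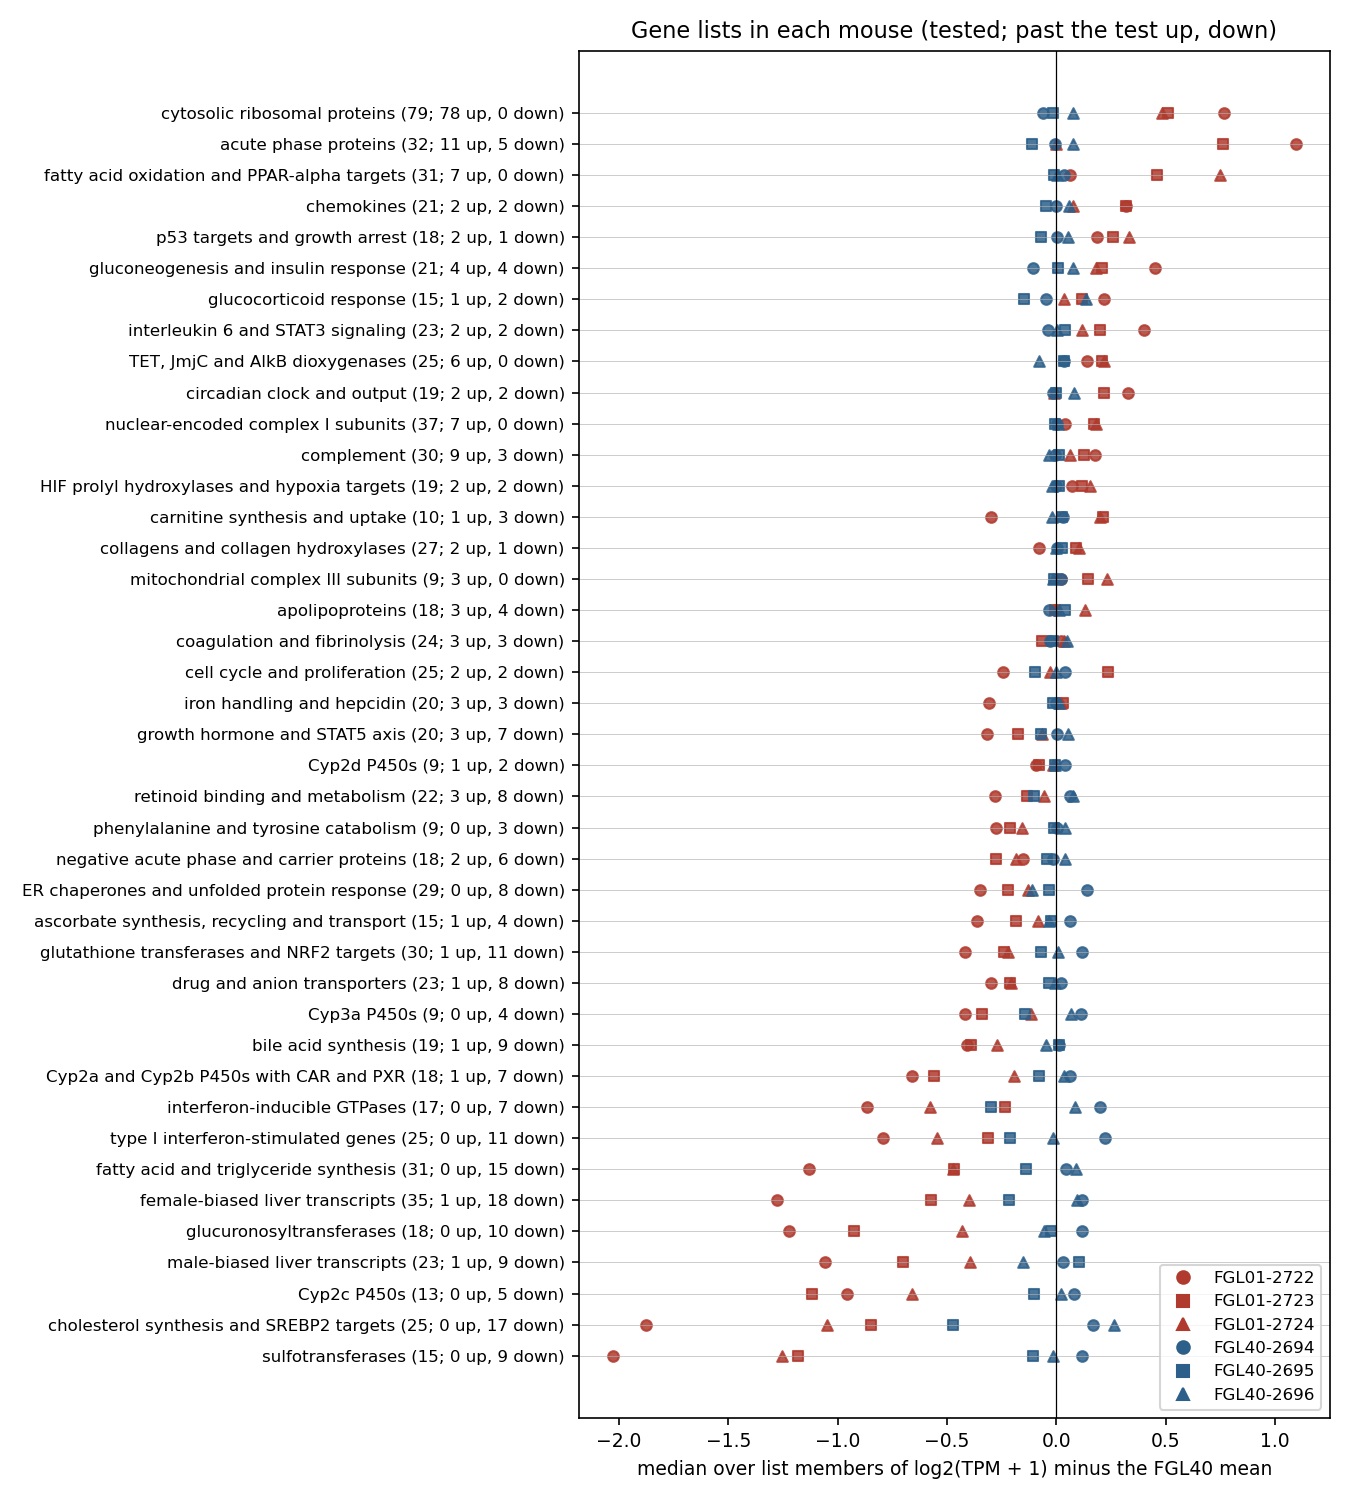
For pathway lists with at least 9 tested genes other than the Mup genes, the median over members of log2(TPM + 1) minus the FGL40 mean in each of the 6 livers; FGL01 in red, FGL40 in blue, shapes by animal, with the counts of members past the test after each name. The FGL01-2722 liver is at the outer end of many lists, such as sulfotransferases (-2.03) and acute phase proteins (1.10), but not of fatty acid oxidation (0.06).

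Interferon-stimulated genes were lower in FGL01 where they passed the test. These antiviral genes are switched on through an element repeated in their promoters, which is bound by a complex that holds IRF9. Of 25 type I interferon-stimulated genes 11 were lower, none was higher and 14 did not pass (16 were lower and none higher after rescaling), with a median of -0.60. Isg15, a ubiquitin-like protein, had 4.65, 12.5 and 11.3 TPM in FGL01 and 29.1, 15.2 and 21.4 TPM in FGL40 (log2 fold change -1.18 ± 0.27 SE, adjusted p = 0.00705). Ifi27 had 33.1, 46.4 and 62.9 TPM against 157, 90.1 and 86.3 TPM (log2 fold change -1.20 ± 0.22 SE, adjusted p = 0.002), and Rtp4 had 7.07, 12.5 and 10.9 TPM against 25.6, 18.9 and 22.8 TPM (log2 fold change -1.09 ± 0.16 SE, adjusted p = 0.000498). The lowest liver in all 3 was FGL01-2722. Irf9 itself had 11.1, 16.4 and 18.01 TPM against 28.5, 21.03 and 26.3 TPM (log2 fold change -0.71 ± 0.15 SE, adjusted p = 0.00406). Of 17 interferon-inducible GTPases, which attack vacuoles of microbes, 7 were lower and none higher. Iigp1 had 41.7, 57.5 and 80.7 TPM against 166, 124 and 152 TPM (log2 fold change -1.32 ± 0.21 SE, adjusted p = 0.000691), and Irgm1 was lower with -0.74. Irgm2, Gbp3 and Gbp7 were lower with -0.56, -1.02 and -0.63 but overlapped between the groups. Without FGL01-2722, 6 interferon-stimulated genes and 4 GTPases were lower, without FGL40-2694, 5 and 4, and without FGL40-2696, 7 and 4.

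Letters of the interferon element, GAAANNGAA on either strand, were in the window of 250 bases before the start in 10 of 18 interferon-stimulated genes with a promoter sequence and in 7.73% of all tested genes with one. Stretches around the element are shown for Isg15, Ifit1 and Ifit3, whose windows hold 3 matches each (2 of them in the stretch of Ifit3) and whose log2 fold changes were -1.18, -0.86 and -1.02, with overlapping groups in Ifit1. Matches are in capitals and overlap where they run on. They were read from RefSeq on GRCm38.p6 at chr4:156200848-156200936 (minus strand), chr19:34640740-34640828 (plus) and chr19:34583334-34583422 (plus). Apcs, Ifit1 and Ifit3 were chosen after their values were seen, because their windows hold the element. The sterol element TCACNCCAC, searched in the same way, was in 1 of 17 cholesterol genes (Hmgcs1) and in 1.21% of all tested genes with a window.
Isg15: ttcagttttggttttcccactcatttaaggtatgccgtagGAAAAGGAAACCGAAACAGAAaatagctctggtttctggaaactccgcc
Ifit1: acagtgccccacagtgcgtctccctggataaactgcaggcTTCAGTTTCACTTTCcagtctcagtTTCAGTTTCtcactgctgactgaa
Ifit3: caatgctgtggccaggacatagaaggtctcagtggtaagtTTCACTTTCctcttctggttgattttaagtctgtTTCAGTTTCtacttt

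Cytosolic ribosomal protein genes were higher together by small amounts. Of 79 members 78 were higher and none lower (68 and 0 after rescaling), with a median of 0.58, and their sum took 4.99%, 4.16% and 4.13% of TPM in FGL01 and 2.82%, 2.92% and 3.11% in FGL40. The exact two-sided permutation test on this share gave 0.1, the smallest possible. Rpl13a had 1691, 1360.3 and 1397 TPM in FGL01 and 787, 816 and 896 TPM in FGL40 (log2 fold change 0.83 ± 0.09 SE, adjusted p = 7.12e-05). Rps27 had 1389.5, 1081 and 998 TPM against 697, 776 and 780.2 TPM (log2 fold change 0.61 ± 0.11 SE, adjusted p = 0.00138), and Rpl41, Rplp1 and Rps2 had 0.53, 0.39 and 0.35. Rplp1 and Rps2 did not pass after rescaling (adjusted p = 0.0976 and 0.142). Many of these genes have processed pseudogenes that can share their reads. No member had a ratio of mean TPM above 2.

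Respiratory chain genes encoded in the nucleus moved less. Of 37 complex I subunits 7 were higher and none lower, beside 13.5% higher among all tested genes. None in either direction passed after rescaling, and the median then was 0.00 instead of 0.14. The 7 went to 2 without FGL01-2723, 4 without FGL01-2724, 1 without FGL40-2694 and 3 without FGL40-2695. Ndufa2 had 178, 170.1 and 178 TPM in FGL01 and 134, 134 and 148 TPM in FGL40 (log2 fold change 0.34 ± 0.07 SE, adjusted p = 0.0043), and Ndufa7, Ndufa10, Ndufv1 and Ndufb11 had 0.27, 0.27, 0.25 and 0.21. Of 9 complex III subunits 3 were higher, and after rescaling 1. This was Uqcr10, with 439, 409 and 447 TPM against 326, 309 and 327 TPM (log2 fold change 0.43 ± 0.06 SE, adjusted p = 0.000299). Uqcrh and Uqcrq had 0.28 and 0.19. Transcripts of the mitochondrial genome took 14.3%, 14.5% and 13.1% of TPM in FGL01 and 14.8%, 13.01% and 13.5% in FGL40, and the exact two-sided permutation test gave 0.9.

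Endoplasmic reticulum chaperones and genes of the unfolded protein response were lower where they passed the test. Of 29 members 8 were lower and none higher (11 and 0 after rescaling). The list summed to 3024, 2911 and 3313 TPM in FGL01 and to 4243, 3587 and 3388 TPM in FGL40. Wild type females were as low as FGL01, with 2878, 2893 and 3266 TPM, and the sums were not tested. Hyou1, a chaperone of the lumen, had 26.02, 31.3 and 57.8 TPM in FGL01 and 110.1, 74.9 and 65.9 TPM in FGL40 (log2 fold change -1.15 ± 0.28 SE, adjusted p = 0.00994). Xbp1, the factor that drives these genes, had 121, 106 and 109 TPM against 172, 156 and 152 TPM (log2 fold change -0.51 ± 0.13 SE, adjusted p = 0.0118), and Manf, Pdia4 and Canx were lower with -0.93, -0.66 and -0.43. The 8 genes went to 4 without FGL01-2722 or FGL01-2723, 2 without FGL40-2694 and 5 without FGL40-2695. Of 18 p53 targets and growth arrest genes Gdf15, a stress hormone, was lower at 14.1, 2.22 and 10.3 TPM against 46.97, 55.7 and 79.3 TPM (log2 fold change -2.88 ± 0.58 SE, adjusted p = 0.00353), and Sesn2 and Tnfrsf10b were higher with 1.09 and 0.42, neither after rescaling. In this list 1 gene was higher without FGL01-2722 or FGL01-2723 and none without any other single liver, while 2 were lower without FGL01-2722 or FGL40-2694. Of 25 cell cycle genes 2 were higher (Mcm3, 0.58, and Mcm6, 0.43) and 2 lower, the higher ones not after rescaling. Ccnd1, cyclin D1, had 4.87, 13.9 and 13.7 TPM against 38.6, 30.4 and 33.3 TPM (log2 fold change -1.68 ± 0.36 SE, adjusted p = 0.0049), and Rrm2 had -0.66. With 1 liver left out 0 to 4 cell cycle genes were higher, with 1 without FGL40-2695, and 1 was lower without FGL01-2722 or FGL40-2696.

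Of 15 genes of ascorbate synthesis, recycling and transport 4 were lower and 1 was higher. Rgn, regucalcin, the gluconolactonase one step before Gulo, had 249, 350.0 and 370.0 TPM in FGL01 and 832, 641 and 676 TPM in FGL40 (log2 fold change -1.16 ± 0.20 SE, adjusted p = 0.00148). Ugp2, which makes UDP-glucose at the start of the pathway, had 92.3, 90.1 and 102 TPM against 207, 208 and 204 TPM (log2 fold change -1.11 ± 0.12 SE, adjusted p = 7.12e-05). Both were lower in every FGL01 liver. Cyb5r3 and the glucose carrier Slc2a2 were lower with -0.84 and -0.57, and glutaredoxin (Glrx), which can reduce dehydroascorbate, was higher with 0.48. Of 25 dioxygenases of the TET, JmjC and AlkB families 6 were higher and none lower (3 and 1 after rescaling). Tet3, a DNA demethylase, had 7.91, 8.81 and 8.10 TPM against 4.24, 4.42 and 4.30 TPM (log2 fold change 0.80 ± 0.11 SE, adjusted p = 0.000323), and Kdm5a, a histone demethylase, had 17.5, 19.1 and 14.9 TPM against 9.48, 10.03 and 10.02 TPM (log2 fold change 0.74 ± 0.13 SE, adjusted p = 0.00127). Kdm3a, Kdm4b and Kdm7a had 0.61, 0.78 and 0.46, and Kdm4b and Kdm7a did not pass after rescaling.

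Of 27 collagens and collagen hydroxylases 2 were higher (1 without FGL40-2696) and 1 lower (none without FGL01-2722, FGL01-2723, FGL40-2694 or FGL40-2696). Col5a2 had 4.42, 4.01 and 3.72 TPM in FGL01 and 1.22, 1.46 and 1.40 TPM in FGL40 (log2 fold change 1.10 ± 0.18 SE, adjusted p = 0.00108). Plod1, a lysyl hydroxylase, was higher with 0.39 but not after rescaling, and P4ha1, a prolyl hydroxylase, was lower with -0.43. Of 19 HIF hydroxylases and hypoxia targets 2 were higher and 2 lower. Ldha, lactate dehydrogenase, had 1033, 1076 and 1148 TPM against 570.4, 579 and 562 TPM (log2 fold change 0.93 ± 0.18 SE, adjusted p = 0.00315), and Bnip3 had 322, 296 and 206 TPM against 149, 162 and 173 TPM (log2 fold change 0.74 ± 0.14 SE, adjusted p = 0.00258). Epas1, which encodes HIF-2-alpha, was lower with -0.41. In the hypoxia list 1 gene was lower without FGL40-2695, 2 were without FGL01-2724 and none was without any other single liver. Of 10 carnitine genes Bbox1, the last hydroxylase of the pathway, was lower at 32.8, 54.1 and 59.2 TPM against 73.1, 73.2 and 67.8 TPM (log2 fold change -0.59 ± 0.16 SE, adjusted p = 0.0169), Shmt1 and Shmt2 were lower with -0.55 and -0.53, and Cpt1a was higher. In the carnitine list 2 genes were higher without FGL01-2722 and none without FGL40-2694. Of 9 genes of phenylalanine and tyrosine breakdown 3 were lower and none higher (5 and 0 after rescaling). The lower count was 1 without FGL01-2722, FGL40-2694 or FGL40-2696. Qdpr, which regenerates tetrahydrobiopterin, and Hgd, an enzyme of tyrosine breakdown, were lower with -0.46 and -0.33.

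Transcripts of immune cells were among the largest rises. Fewer or more cells of a type and less or more RNA per cell cannot be told apart in whole liver. Igkc, the kappa light chain, had 51.3, 340.1 and 34.2 TPM in FGL01 and 11.3, 15.7 and 19.2 TPM in FGL40 (log2 fold change 2.41 ± 0.70 SE, adjusted p = 0.0251). Ighm, the IgM heavy chain, had 35.01, 152 and 19.1 TPM against 6.13, 9.10 and 9.76 TPM (log2 fold change 2.39 ± 0.63 SE, adjusted p = 0.016), and Ighg2c had 1.73, 48.9 and 0.828 TPM against 0.0556, 0.103 and 0.183 TPM (log2 fold change 2.50 ± 0.81 SE, adjusted p = 0.0437). FGL01-2723 was far above the other livers in all 3, while the remaining FGL01 livers also lay above FGL40, which was a condition for naming Ighg2c. Ighg2c did not pass after rescaling (adjusted p = 0.0517). Of 11 B and plasma cell markers 6 were higher and none lower, also after rescaling, and 3 without FGL01-2723 or FGL40-2694. Cd79a, part of the B cell receptor, had 5.55, 9.86 and 4.52 TPM against 2.15, 2.17 and 2.58 TPM (log2 fold change 1.15 ± 0.25 SE, adjusted p = 0.00614), and Cd79b and Ighd had 1.13 and 1.15. The summed level of these markers was 77.1 to 562 TPM in FGL01 and 28.9 to 45.0 in FGL40, and none was at 0 in any liver.

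Of 14 Kupffer cell and macrophage markers 6 were higher and none lower. C1qb had 114, 136 and 96.9 TPM in FGL01 and 75.6, 77.7 and 72.9 TPM in FGL40 (log2 fold change 0.59 ± 0.17 SE, adjusted p = 0.0233), and Marco, a scavenger receptor, had 35.2, 44.5 and 30.7 TPM against 6.56, 29.3 and 4.71 TPM (log2 fold change 1.77 ± 0.59 SE, adjusted p = 0.0494). C1qa, C1qc and Cd68 had 0.46, 0.59 and 0.55. None of the 6 passed after rescaling, and 0 or 1 passed when any 1 of FGL01-2722, FGL01-2723 and the 3 FGL40 livers was left out. The summed level was 820 to 1074 TPM in FGL01 and 643 to 743 TPM in FGL40. Of 13 T and NK cell markers 4 were higher (Trac, 0.74, Cd3g, 0.70, Cd3e, 0.65, and Cd3d, 0.47), none of them after rescaling. Of these T and NK cell markers 1 was higher without FGL40-2694 or FGL40-2695 and none without FGL01-2722, FGL01-2723 or FGL40-2696. Their sum was 12.5 to 19.3 TPM in FGL01 and 9.74 to 10.7 TPM in FGL40.

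Neutrophil markers had 3 of 15 higher and none lower, beside 13.5% higher among all tested genes. All 3 were at low levels, and 8 were higher without FGL01-2724. Prtn3, a granule protease, had 5.81, 1.82 and 0.766 TPM in FGL01 and 0.0854, 0.353 and 0.269 TPM in FGL40 (log2 fold change 1.39 ± 0.39 SE, adjusted p = 0.022), and Ngp and Ltf, granule proteins, stayed under 1 TPM with 0.74 and 0.54. Of 7 monocyte markers Itgam (0.64) and F10 were higher. F10 is coagulation factor X, which is also on the coagulation list, so it does not mark monocytes alone, and it did not pass after rescaling. Of 10 dendritic cell markers Siglech was higher (0.73). Of 21 chemokines Ccl6 and Cxcl12 were higher, with 1.23 and 0.28 (Cxcl12 not after rescaling), and Ccl9 and Cxcl11 were lower, with -1.01 and -0.65. Stab2 was higher among 10 endothelial markers (0.51) and Dcn among 10 stellate cell and fibroblast markers (0.49, not after rescaling). Of 13 erythroid markers Car1 was lower (-1.11). Counts as small as these moved with single livers: without FGL01-2724, 4 monocyte and 2 dendritic cell markers were higher, 1 monocyte marker was higher without FGL01-2722, FGL40-2694 or FGL40-2696, no stellate marker was without FGL01-2722, FGL01-2723, FGL40-2695 or FGL40-2696, no chemokine was lower without FGL01-2722, FGL01-2724, FGL40-2694 or FGL40-2696, 1 chemokine was higher without FGL01-2723, FGL40-2694 or FGL40-2696, and no erythroid marker was lower without FGL01-2722 or FGL40-2694. No cholangiocyte, adipocyte or muscle marker passed. Their most abundant members Spp1, Fabp4 and Mylpf had -0.61, 0.18 and -0.75 with adjusted p of 0.0617, 0.708 and 0.177.

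Other genes rose further than most listed ones. Hdc, histidine decarboxylase, which makes histamine, had 64.6, 41.3 and 85.5 TPM in FGL01 and 5.02, 15.1 and 12.6 TPM in FGL40 (log2 fold change 2.50 ± 0.48 SE, adjusted p = 0.0027). Rad54b, a DNA repair helicase, had 17.5, 16.5 and 12.3 TPM against 1.70, 2.54 and 2.16 TPM (log2 fold change 2.38 ± 0.32 SE, adjusted p = 0.000249), and Peg3, an imprinted zinc finger gene, had 30.2, 17.8 and 22.2 TPM against 3.28, 4.50 and 3.86 TPM (log2 fold change 2.30 ± 0.28 SE, adjusted p = 0.000151). The FGL01 livers were close to each other in the latter pair. A lack of overlap with FGL40 was a condition for naming all 3 genes, so it is not a result. Adra2a, an adrenergic receptor, had 3.21, 3.18 and 8.75 TPM against 0.0456, 0.267 and 0.0502 TPM (log2 fold change 2.32 ± 0.43 SE, adjusted p = 0.00223). Chchd2l had 22.4, 12.6 and 6.47 TPM against 1.58, 1.66 and 2.90 TPM (log2 fold change 2.16 ± 0.37 SE, adjusted p = 0.00126), and Rgs1, a G protein regulator of immune cells, had 9.93, 10.5 and 7.99 TPM against 1.57, 0.811 and 2.97 TPM (log2 fold change 1.98 ± 0.38 SE, adjusted p = 0.00259). Trbj1-5, a joining segment of the T cell receptor, had 4.02, 14.3 and 6.60 TPM against 0, 0 and 3.43 TPM, with 2 FGL40 livers listed at 0 and no pass after rescaling.

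The females were set beside males on the same doses to ask whether the sexes responded alike. In the model of all 36 mice, 282 genes (1.49% of those tested) had a difference between the female and the male log2 fold change at an adjusted p under 0.05, 141 in each direction. Of the 35 female-biased genes 15 passed, all with a lower fold change in females. Genes of this list that are near 0 TPM in MGL40 cannot fall further in males on the log2(TPM + 1) scale. For these a fall in females alone gives this direction, so the direction of the count is partly set in advance. In males 7 of the 35 were higher in MGL01 than in MGL40 and none lower, against 1.69% of all tested genes higher and 1.20% lower. Cyp2a4 went from 0.307 ± 0.127 TPM to 23.3 ± 13.4 TPM in males, a log2 fold change of 4.01 against -3.19 in females (difference -7.20, adjusted p = 0.000262). Cyp2b9 gave 5.06 in males, where it went from 1.81 ± 1.44 TPM to 90.1 ± 35.4 TPM, and -0.60 in females (difference -5.66, adjusted p = 0.0102). Both genes thus rose in males and fell in females. Cyp3a16, at 0.0747 ± 0.0400 TPM in MGL40, was near 0 in males, and its difference was -5.91.

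Of the 18 Mup genes 8 had a lower fold change in females than in males and none a higher one. In males 13 of the 18 were lower in MGL01 than in MGL40 and none higher, with a median of -3.60. Of all tested genes 1.20% were lower in males. Mup15 and Mup14 had male log2 fold changes of -7.34 and -5.57 and passed there, and they did not differ between the sexes past the test. Mup22 had 27164 ± 2772 TPM in MGL40 and 11857 ± 7294 TPM in MGL01 and did not pass the test in males (log2 fold change -1.49, adjusted p = 0.0859), and had a difference of -8.43 (adjusted p = 1.45e-06). Mup18 had a male log2 fold change of 0.17, not past the test, and a difference of -9.90 (adjusted p = 1.06e-08). Socs2 rose in females and gave -1.05 in males without passing there (difference 3.23, adjusted p = 0.0421). Cyp2f2 was lower in both, with -4.23 in females and -1.06 in males (difference -3.16, adjusted p = 0.000262). Of the 79 ribosomal protein genes 12 had a higher fold change in females and none a lower one. The count of 282 was 593 without the Mup genes, 50 in a fit of only these 4 groups, and 91 to 773 with 1 of the 12 mice left out.

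**Figure D4:**
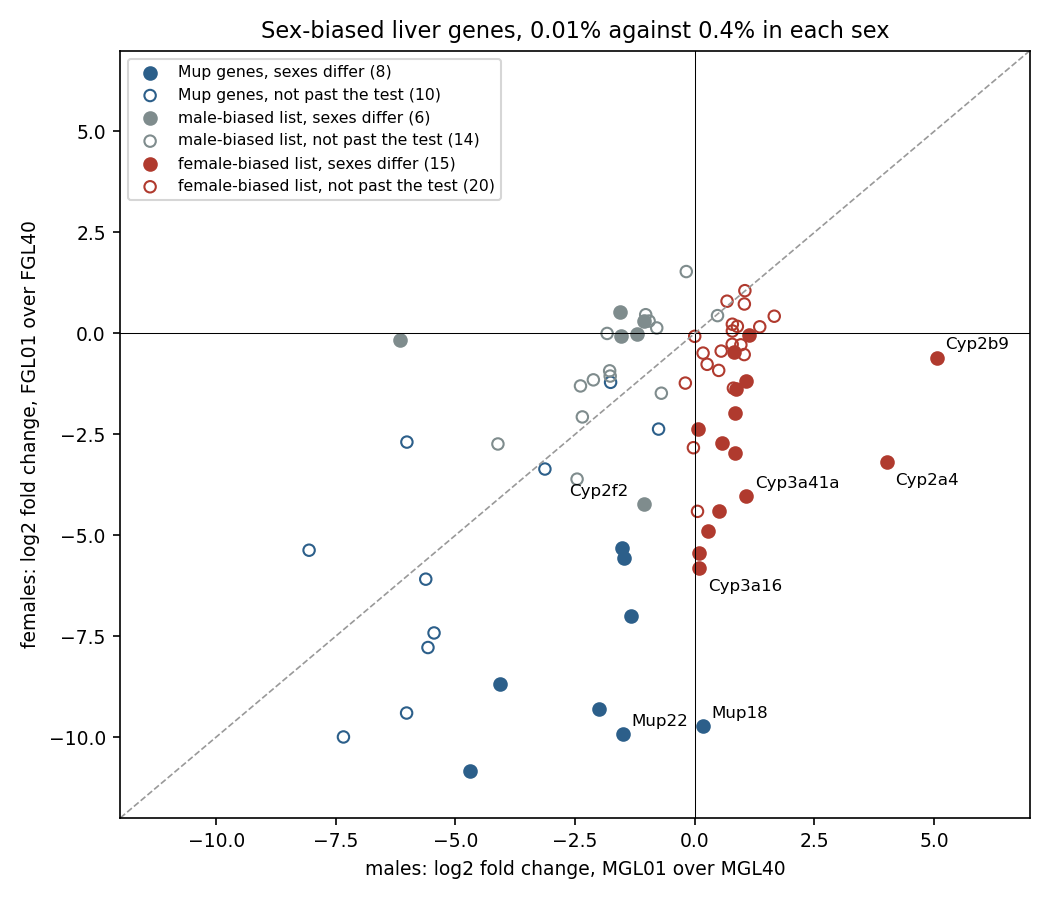
Log2 fold change of 0.01% over 0.4% ascorbate in females (vertical) against males (horizontal) for Mup genes, male-biased genes other than Mup and female-biased genes; filled points passed the test of the difference between the sexes and the dashed line marks equal change. The female-biased genes lie mostly right of and below the crossing of the axes, with Cyp2b9 at 5.06 in males and -0.60 in females.

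Lifelong 0.01% ascorbate and a 4-week withdrawal were also compared, to ask how a chronic marginal supply differs from an acute lack. Fewer genes passed than against FGL40: 636 genes (3.36%) were higher in FGL01 and 126 (0.665%) lower, and 202 (1.07%) were changed. Both comparisons share the FGL01 livers. After rescaling 55 were higher and 199 lower, so that the higher share went from 83.5% to 21.7%. Hamp had the largest rise, with 213 ± 70.5 TPM in FGL00 (SD, n = 3) and 2058 ± 239 TPM in FGL01 (log2 fold change 3.32, adjusted p = 3.03e-05), so that FGL01 lay between FGL00 and FGL40. Of the other female groups, FGL05 at 4576 ± 1782 TPM and FWT00 at 5888 ± 1109 TPM had means above the 4303 ± 645 TPM of FGL40, and these differences are not tested here. Hamp2, a near-identical copy, rose by 2.81 and Cyp2a22 by 2.89. Hao2 and Acot1 rose by 2.12 and 2.11.

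The largest falls against FGL00 were those of Serpina1e, Mup22, Saa2, Saa1 and Mup18, with -4.63, -4.45, -4.02, -3.64 and -3.49. Saa1 stood at 3823 ± 2627 TPM in FGL00 and 413 ± 399 TPM in FGL01. Of the 32 acute phase genes 9 were lower in FGL01 than in FGL00 and 1 was higher, with a median of -0.62 against 0.11 over all tested genes. Markers of 2 other cell types were lower as well: 6 of 15 neutrophil and 7 of 13 erythroid markers were lower in FGL01 than in FGL00 and none was higher. Their sums were 58.05 to 454 TPM in FGL01 and 499 to 719 TPM in FGL00 for neutrophils, and 923 to 1798 TPM and 3207 to 5827 TPM for erythroid cells, and their part in the acute phase values was not tested. The neutrophil sum includes Lcn2, which hepatocytes also make. Among markers of other types, 2 of 11 B and plasma cell, 1 of 10 dendritic cell and 1 of 10 endothelial markers were higher, with none lower. Of all tested genes 3.36% were higher and 0.665% lower in this comparison. Counts of 1 gene give no direction for a cell type, and list counts against FGL00 were not repeated after rescaling. No Kupffer cell, monocyte or T and NK cell marker passed. Hpx stood at 7724 ± 744 TPM in FGL00 and 5708 ± 1780.3 TPM in FGL01, without passing the test (adjusted p = 0.1). Mup22, at 435 ± 162 TPM in FGL00, was higher there than in FGL01. These counts moved with single livers. Changed genes numbered 537 without FGL01-2722, 76 without FGL01-2723, 105 without FGL01-2724, 75 without FGL00-2788, and 2 when only these 2 groups were fitted.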

How the data were processed

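RNA of whole liver from 36 mice was sequenced after poly(A) selection on strand-marked paired libraries. According to the labels and the study's methods, the authors trimmed reads with fastp 0.20.0 and quantified transcripts of the Ensembl mouse release 104 with kallisto 0.46.2, and deposited TPM per gene. How transcripts were added into genes is not given in the sources used here. Each mouse sums to 1000000 TPM over 36066 genes, so a rise of some genes lowers the others, and TPM keeps no depth: no counting interval can be given.

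Genes above 0 TPM in at least 4 of the 6 FGL01 and FGL40 mice were tested as log2(TPM + 1) with limma 3.58.1 (R 4.3.3, moderated test with trend and robust variance) in a fit of the 18 females, or of all 36 mice for the difference between the sexes, with Benjamini-Hochberg adjustment over all 18936 genes. Passing the test means an adjusted p under 0.05, and higher and lower refer to FGL01. Fold changes on this scale understate those of low genes. Replicates were separate mice, identified by animal number. Shares of TPM were compared by exact permutation tests (two-sided).

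The named genes were the 12 largest rises and falls among changed genes with no overlap between groups and at least 5 TPM in the higher group (predicted genes, pseudogenes and pancreatic markers left out), up to 5 members with adjusted p under 0.05, taken by abundance, from each of 44 pathway and 14 marker lists (the most abundant member where none passed), Gulo and pancreatic markers, and the 5 largest rises and falls against FGL00. Cyp2b10, Gstm3, Hmox1, Abcg2, Klb, Cyp7b1, Cyp7a1, Lcn2, S100a8, S100a9, Apcs, Ifit1 and Ifit3 lie outside this rule and were chosen after their values were seen. Some genes that the rule takes are not reported here. The lists and the comparison itself were chosen with earlier results of these data known. Alternatives were median-ratio scaling, other filters and pseudocounts, array weights, a fit of only the groups compared, removal of Mup or pancreatic genes, and each mouse left out. The counts of list members under scaling or without a mouse were added after seeing the data. The fit was checked on simulated data.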

Additional observations from a re-analysis of the deposited data

Results flagged for a closer look

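The response to 0.01% against 0.4% ascorbate differed between females and males in 42 of the named genes, by the test of the difference itself in the model of all 36 mice (limma, adjusted p from 1.06e-08 to 0.0457). Among all 18936 tested genes 282 (1.49%) passed, 141 in each direction. The named genes were mostly picked because they passed the test in females. That female change is part of the difference, so the number and direction of these genes are not independent of the naming. The values in parentheses are the female minus the male log2 fold change, so a negative value is a lower fold change in females. Male and female livers are separate mice on the same doses.

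Among the Mup genes the differences were those of Mup18 (-9.90), Mup22 (-8.43), Mup16 (-7.30), Mup19 (-6.16), Mup10 (-5.68), Mup11 (-4.63) and Mup3 (-3.79). Among P450 enzymes they were Cyp2a4 (-7.20), Cyp3a16 (-5.91), Cyp2b9 (-5.66), Cyp3a41b (-5.53), Cyp3a44 (-5.17), Cyp3a41a (-5.11), Cyp2a5 (-3.22), Cyp2f2 (-3.16), Cyp2c40 (-2.26), Cyp2c69 (-2.24) and Cyp2a12 (-0.73). Among other enzymes and carriers of drugs, steroids and bile acids they were Sult2a8 (-2.93), Sult3a1 (-2.81), Sult1d1 (-1.67), Sult1a1 (-1.03), Ugt1a5 (-2.70), Gstt3 (-1.78), Gstt1 (-1.05), Slco1b2 (-1.31), Fmo1 (-1.02) and Slc27a5 (-0.61). All 28 of these genes had the lower fold change in females, a direction that naming genes by their fall in females favours.

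The remaining falls relative to males were those of Rgn (-1.45), Ugp2 (-0.94) and Cyb5r3 (-0.89) on the ascorbate list, Prlr (-1.27), Ccnd1 (-1.66), Dgat2 (-0.87), Apoc3 (-0.61), Shmt2 (-0.42) and Gc (-0.31). A higher fold change in females than in males was found for Socs2 (3.23), Peg3 (2.08), Slc13a5 (1.17), Ngp (1.0) and Col5a2 (0.90).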

How the results depend on the processing

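The numbers of changed genes depended on the fit. The 974 genes changed against FGL40 (603 higher, 371 lower) became 1349 with array weights (931 higher) and 678 when only these 2 groups were fitted (388 higher), 384 were higher after median-ratio scaling and 400 with a minimum of 1 TPM in 3 mice, and without the criterion on the ratio there were 3546 (2550 higher, 996 lower). Leaving out 1 mouse gave 701 to 1253 changed genes, 404 to 799 higher and 245 to 454 lower, with 245 lower genes without FGL01-2722. The 202 genes changed against FGL00 became 543 with array weights, 112 after scaling, 2 with only these groups and 762 without the ratio, and 75 to 537 with 1 mouse left out. The 282 genes that differed between the sexes became 1352 with array weights, 50 with only these groups and 593 without the Mup genes, and 91 to 773 with 1 mouse left out. Which property of the fit moved these counts was not tested. The difference of the Mup share was -2.869 to -3.507 percentage points with 1 mouse left out. Of 219 named genes past the test, 102 passed under every alternative, 177 after scaling and 125 with only the groups compared. Reversed signs were found only in genes not past the test: Reg2 (0.08) at -0.04 after scaling and -0.046 to 0.248 with 1 mouse left out, Prss1 (-0.10) at -0.152 to 0.0, and Hao2 (0.23) at -0.346 to 0.751. Of 34 counts of gene list members in 1 direction that were 0, 8 became 1 with some 1 of the 6 livers left out. No paired analysis was possible because the replicate numbers are animal numbers that no groups share. The main limits are 3 mice per group, a depth per library that is not known, values that are shares of a fixed sum, and 1 FGL40 liver with pancreatic transcripts.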

Other observations

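Genes outside the rule for named genes held some of the largest falls, and those given here were chosen after their values were seen. A1bg, alpha-1-B glycoprotein, had 1.55, 16.6 and 2.72 TPM in FGL01 and 185, 35.99 and 230.4 TPM in FGL40 (log2 fold change -4.41, adjusted p = 0.0036). The groups did not overlap, and FGL40-2695 was the lowest of its group. Beside the wild type females, the FGL40 livers differed in 32 genes at an adjusted p under 0.05 (limma) and in 1401 at an unadjusted p under 0.05, while FGL01 and FGL40 differed in 3546 and 6075.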
